A study of Danio rerio with 4 samples.

Results

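The genes described here encode glutathione S-transferases (gsta.1, gstp1, gstt1a, gstt1b, gstr and gsto1), the enzymes that make glutathione (gclc, gclm and gss) and the reductase that recycles it (gsr). They were listed by name, and their probes were found by the transcript identifier of each array spot. Of the 10 genes, 9 were matched to probes, with 19 probes in all, and 9 were among the 24329 genes tested. Of these 24329, 12496 were named through a transcript identifier. The others are array identifiers without a gene name, each counted as a gene, so that a gene may be counted more than once. Shares of all genes below rest on both kinds. Under its current name gstp1.2, gstp1 was found by its transcript, and gstt1a was not analysed here because no probe carried its listed transcript. Every one of the 19 probes stood well above background on all 4 arrays.

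Gene expression was measured in total RNA from testes of 4-month-old zebrafish with 1-colour Agilent arrays. Control fish were kept for 6 weeks without the toxin (0 µg/L), and the treated fish for the same 6 weeks in water holding 20 µg/L of the toxin. The toxin, microcystin-LR (MCLR), is made by cyanobacteria and inhibits the protein phosphatases PP1 and PP2A. Each group had 2 arrays, and the labels name no strain and no other agent. The study's design names 2 independent experiments, both with control and MCLR fish. The labels do not say to which of them an array belongs, or whether replicates came from separate fish or pools. The p-values therefore measure only the spread between these samples, which may be technical.

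Glutathione is a tripeptide thiol that cells use to neutralise peroxides and electrophiles. Glutamate-cysteine ligase joins glutamate to cysteine in the rate-limiting step, glutathione synthetase adds glycine, and glutathione reductase restores the oxidised form with NADPH. Glutathione S-transferases couple the thiol to foreign and oxidised compounds, and microcystin is itself known to form a glutathione conjugate. Several of these genes are known targets of the transcription factor Nrf2. In the testis, glutathione is known for protecting germ cells and sperm from oxidants.

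The arrays shared 1 slide, on which MCLR took positions 1 and 2 and control took positions 3 and 4. Slide position and treatment cannot be told apart. The share of spots well above background ran from 81.9% to 88.2%, and 0 were saturated. Of 11 measured germ cell markers, 11 were above background on each array, as were 7 of 7 Sertoli cell and 6 of 6 Leydig cell markers. Markers of the exocrine and endocrine pancreas stood apart on control replicate 2. The log2 of their summed level over 19 of 20 genes was 8.56 there, against 4.01 on control replicate 1 and 3.95 and 4.32 on the MCLR arrays. The summed level of brain and nerve markers, over 6 of 8 genes, stood apart on control replicate 1. Its log2 was 4.66 there, against 1.29 on control replicate 2 and 2.20 and 0.76 on the MCLR arrays. The largest part of that sum came from snap25a, at 4.26 on control replicate 1. Of these genes, only gfap did not peak on that array. Its level was -2.14 on MCLR replicate 1 and -4.60 on MCLR replicate 2, above control replicate 1 (-5.73) and control replicate 2 (-6.18). For 14 of 16 liver markers, the log2 summed level of the controls was 4.60 and 5.68, and that of the MCLR arrays 4.72 and 5.77. Their part in the results below was not tested, and values without each array are given where they change a direction. The number of arrays limits the precision of every value.

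None of the 9 glutathione genes passed the test between MCLR and control. In the limma fit across all genes, with Benjamini-Hochberg adjustment, 0 of the 9 passed an adjusted p of 0.05, where 0% of all genes did. At an unadjusted p under 0.05 the count was also 0 of 9, against 9.2% of all genes. The smallest adjusted p was 0.751, for gss. The log2 fold changes, MCLR minus control, ran from -0.30 to 0.45 with a median of -0.012, and the median over all genes tested was 0.082. A positive value was found for 4 of the 9, against 61.4% of all genes. Levels are given as log2 signal relative to each array's 75th percentile, so they compare arrays for 1 probe and not 1 gene with another.

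**Figure D1:**
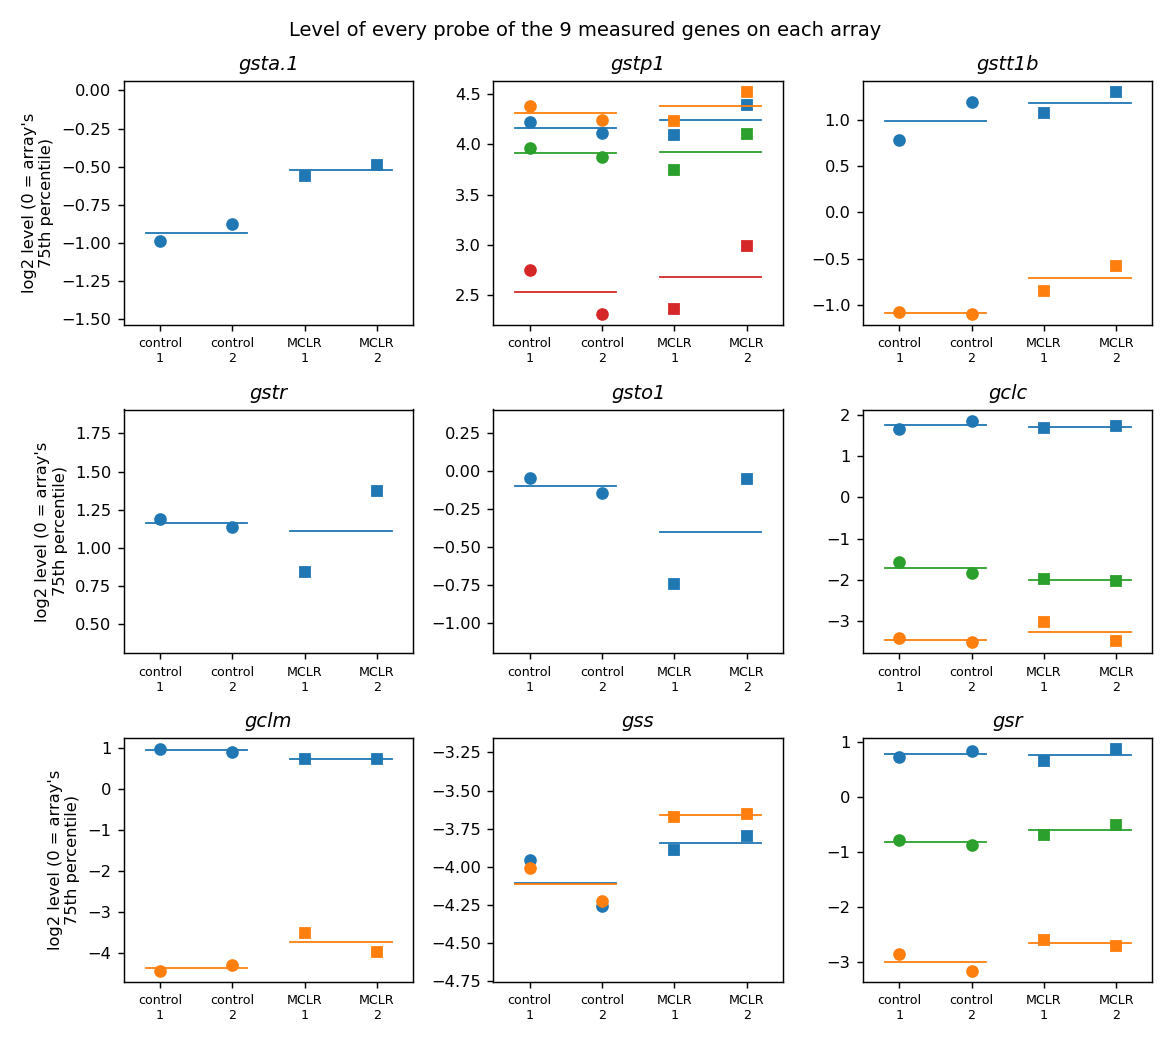
Log2 level of every member probe on each array, where 0 is the array's 75th percentile. Circles are control and squares MCLR arrays, each colour is 1 probe of the gene, and lines are group means of 2 arrays. The groups are separate for the single gsta.1 probe and overlap for all 4 gstp1 probes.

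Among the transferases, the alpha class gene gsta.1 was the one whose brightest or only probe had both MCLR arrays above both controls. Of all genes tested, 25.3% had this order. The alpha class is known for reducing lipid hydroperoxides and for conjugating electrophiles. Control levels were -0.99 and -0.88, and MCLR levels were -0.56 and -0.49. The log2 fold change, given with its SE here and below (n = 2 per group), was 0.41 ± 0.23, or 1.33-fold, with a 95% interval from -0.17 to 0.99. In limma the adjusted p over all genes was 0.790, so the difference did not pass the test. It was larger than the gap between the controls (0.11) and between the MCLR arrays (0.073). The share of all genes with a difference larger than both gaps was not counted, here or for gclm below. Over the 13 alternatives the gsta.1 value stayed between 0.31 (median scaling) and 0.46 (without control replicate 2). Filters and the mean of probes could not move it, because its only probe was well above background on every array. The prior and the balanced replicate block cannot change a fold change. The deposited table (0.394) nearly repeats quantile normalization (0.395). In settings that kept all arrays, the limma adjusted p of gsta.1 was at least 0.669. Its reference neighbour gsta.2, separated from it by 1 protein-coding gene, had -0.064 ± 0.29, with overlapping groups. The neighbours gsta.2, gstp1.1 and gsto2 were chosen after their values were seen.

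The pi class gene gstp1, a known Nrf2 target in zebrafish, was measured by 4 probes. Its brightest probe stood at 4.38 and 4.24 in the controls and at 4.23 and 4.52 in MCLR. These arrays overlapped, with MCLR replicate 1 lowest and MCLR replicate 2 highest. The log2 fold change was 0.065 ± 0.25, with a 95% interval from -0.56 to 0.69 and a limma adjusted p of 0.999. The other probes gave 0.0098, 0.077 and 0.14, and MCLR replicate 2 was the highest array for all 4. Leaving out MCLR replicate 2 turned the brightest probe's value to -0.078. The adjacent gene gstp1.1 was dim, with control levels of -3.90 and -3.37, MCLR levels of -3.28 and -3.42, and a log2 fold change of 0.28 ± 0.28. Without the probe sequences, shared hybridization between these copies was not tested.

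The theta class gene gstt1b, of a class known for acting on small halogenated compounds, had 2 probes. The brighter stood at 0.78 and 1.19 in the controls and at 1.07 and 1.30 in MCLR. Control replicate 1 was lowest, and the groups overlapped because control replicate 2 lay above MCLR replicate 1. The log2 fold change of 0.20 ± 0.27 became -0.0032 without control replicate 1. The dimmer probe had both MCLR arrays (-0.84 and -0.57) above both controls (-1.08 and -1.09), with a log2 fold change of 0.38 ± 0.25.

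The rho class, known from fishes, is represented by gstr. Control levels were 1.19 and 1.14, and MCLR levels were 0.84 and 1.37. Both controls lay between the MCLR arrays, and the log2 fold change was -0.056 ± 0.28. The omega class gene gsto1, whose protein is known to reduce dehydroascorbate, stood at -0.05 and -0.14 in the controls and at -0.74 and -0.05 in MCLR. MCLR replicate 1 alone was low, and the other 3 arrays lay close together. The log2 fold change was -0.30 ± 0.31, with a 95% interval from -1.08 to 0.47, and without MCLR replicate 1 it was 0.041. The adjacent gene gsto2 had 0.021 ± 0.25, and its sign turned with the scaling (-0.055 with quantile normalization). By their brightest probes, the 5 transferase genes measured were all higher on MCLR replicate 2 than on MCLR replicate 1, by 0.073 (gsta.1) to 0.69 (gsto1). This was not particular to transferases, since gclc, gss and gsr were also higher there, and gclm was lower. The share of all genes higher there was not counted. The summed liver markers were higher on MCLR replicate 2 too, although ttr, apobb.1 and cyp2p7 among them were lower. The summed liver markers were also higher on control replicate 2 than on control replicate 1, although cp among them was lower. On control replicate 2, gsta.1 and gstt1b were higher by 0.11 and 0.41. There gstp1, gstr and gsto1 were lower, by 0.14, 0.055 and 0.094. The part of liver tissue in these gaps was not tested.

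For glutathione synthesis, the probes of each ligase subunit differed in sign. The catalytic subunit gene gclc was measured by 3 probes. The brightest stood at 1.66 and 1.86 in the controls and at 1.67 and 1.73 in MCLR. Both MCLR arrays lay between the controls, and the log2 fold change was -0.059 ± 0.24, with a 95% interval from -0.65 to 0.54. The other probes gave -0.29, with both MCLR arrays below both controls, and 0.20, with overlap. Without control replicate 2 the brightest probe gave 0.038.

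The modifier subunit gene gclm, whose protein raises the ligase's catalytic efficiency, had 2 probes. On the brighter probe the controls stood at 0.98 and 0.91 and the MCLR arrays at 0.75 and 0.73, so that both MCLR arrays were lower. Of all genes tested, 9.08% had this order. The log2 fold change was -0.21 ± 0.23, larger than the gap within either group (0.070 and 0.020), with a limma adjusted p of 0.999. The second probe was dim, with control signals of 18.1 and 15.8 and MCLR signals of 26.1 and 25.3. There both MCLR arrays were higher, and the log2 fold change was 0.62 ± 0.28, the largest among the member probes. The mean of both probes gave gclm 0.20. An offset in background correction shrinks folds of dim probes. After background correction with an offset, here and below followed by quantile normalization, the dim probe gave 0.084 and the brighter one -0.17. Quantile normalization alone gave 0.30 and -0.19.

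The synthetase gene gss was dim on both probes. Its brighter probe had control signals of 24.5 and 16.6 and MCLR signals of 23.6 and 31.6, where the lowest signals well above background on the arrays ran from 6.30 to 8.43. Control levels were -4.01 and -4.22 and MCLR levels -3.67 and -3.65, without overlap. The log2 fold change was 0.45 ± 0.24, or 1.37-fold, with a 95% interval from -0.14 to 1.05. The other probe was printed in several spots, of which 4 were used, and gave 0.26 ± 0.26. Its SD between spots was 0.071 to 0.16 within an array. With quantile normalization the probes gave 0.16 and -0.054, and after background correction 0.021 and -0.052.

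For recycling, the reductase gene gsr had 3 probes. The brightest stood at 0.72 and 0.83 in the controls and at 0.66 and 0.87 in MCLR. Both controls lay between the MCLR arrays, and the log2 fold change was -0.012 ± 0.24, with a 95% interval from -0.61 to 0.59. The 2 dimmer probes had both MCLR arrays above both controls, with 0.23 ± 0.25 and 0.35 ± 0.26. The mean of the 3 probes gave 0.19.

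**Figure D2:**
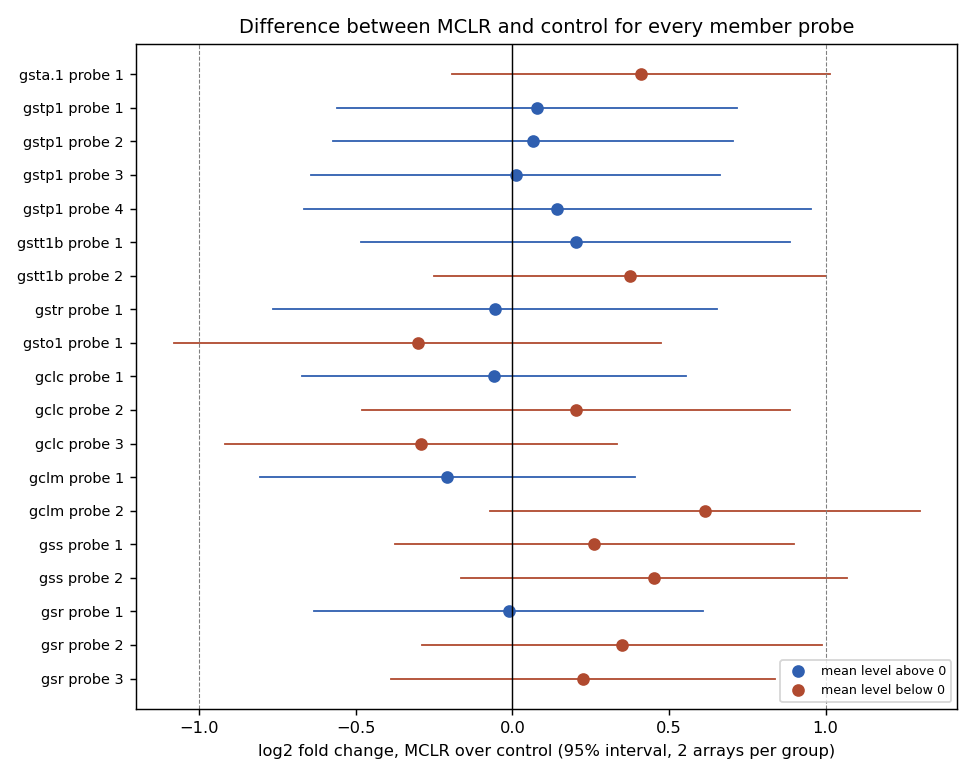
Log2 fold change of each member probe (points) with its 95% interval from the limma fit over all probes (lines), 2 arrays per group. Blue marks probes with a mean level above 0 and red those below, and dashed lines mark 2-fold. Every interval spans 0.

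The members also varied by how bright their probes were. Both MCLR arrays lay above both controls for 7 of the 19 probes (36.8%), against 26.3% of all probes tested, and below for 2 (10.5%), against 8.16%. At the level of genes these counts were 2 of 9 and 1 of 9, against 25.3% and 9.08% of all genes. A positive log2 fold change was found for 13 of the 19 probes, against 63.5% of all probes. Of the 10 member probes with a mean level below 0, 8 were positive, against 69.9% of all probes there, with a median log2 fold change of 0.31. Of the 9 above 0, 5 were positive, against 47.6% of all probes there, with a median of 0.0098. The 4 member probes over 2 were all positive, against 46.7% of all probes there. All 4 belong to 1 transcript of gstp1, so they are no separate genes, and not all stayed positive with median scaling. Of the 5 member probes from 0 to 2, 1 was positive, against 48.3% of all probes there. All probes tested showed the same order, with a median of 0.18 among the 26605 below 0 and -0.010 among the 10821 above 0. Among all probes under -4 the median was 0.55, and the gclm probe there had 0.62. These level bounds were chosen after the data were seen. The part of signal level in the members' values was not tested.

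**Figure D3:**
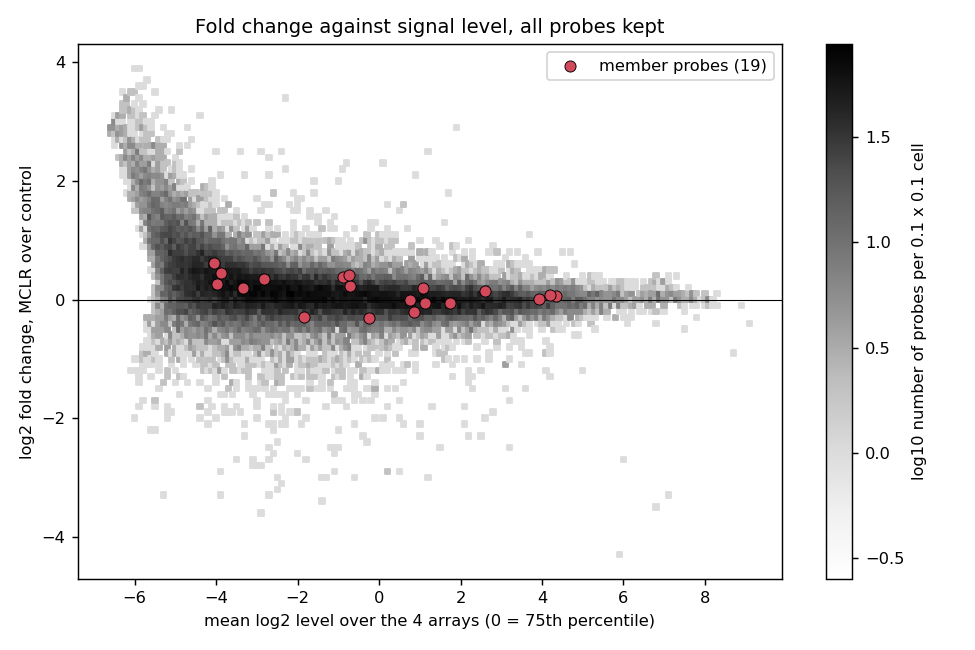
Log2 fold change against mean log2 level over the 4 arrays for all 37426 probes (grey, darker where more probes fall) and the 19 member probes (red). Dim probes spread upward on the left, and the dim member probes lie within that spread.

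The intervals bound what these arrays could detect. In the gene fit, on 1 probe per gene, 7 of the 9 genes had a 95% interval wholly within a 2-fold difference. The exceptions were gss and gsto1. The share of all genes with such an interval was not counted, so the count is no trait of these genes. In the probe fit, intervals also passed a log2 fold change of 1 for other genes. They reached 1.013 for gsta.1, 1.002 for the dimmer gstt1b probe and 1.30 for the second gclm probe. At the median standard error over all genes, 0.28, a log2 difference of 0.69 was the smallest that reached an unadjusted p of 0.05. Genes with a smaller error, such as gclm and gsta.1, would reach it with a smaller difference.

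Related genes were described in 5 lists, without the members. In the list of other glutathione transferases, 23 genes were tested, and 0 had an unadjusted p under 0.05. The list also held eef1g, ptgesl, clic1, clic2 and clic4, which are counted here with the transferases. There were 14 positive and 9 negative values with a median of 0.035. The 2 with the smallest p were gdap1, a transferase-like gene of mitochondria, and gstz1, the zeta class enzyme of tyrosine breakdown. For gdap1 the control levels were -5.33 and -7.86 and the MCLR levels -3.29 and -5.19, with only 1 control array above background. It was kept through its MCLR arrays alone. The array below background, control replicate 2, makes the fitted log2 fold change of 2.36 ± 0.98 (limma adjusted p of 0.566) no measured size. Without that array it was 1.09, and after background correction 0.20. For gstz1 the value was 0.40 ± 0.26, with both MCLR arrays above both controls.

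In the list of cysteine supply, glutathione breakdown and export, 21 of 35 genes were tested and 1 had an unadjusted p under 0.05, higher, against 8.67% of all genes. This gene was ggt1a, for gamma-glutamyltransferase, which cleaves glutathione outside cells. Its control signals were 5.85 and 5.96, where it was not well above background, and 18.1 and 30.8 in MCLR. It was kept through its MCLR arrays alone, the group where it is higher. Its p is therefore no independent support for that direction. Under percentile scaling ggt1a was 3.63-fold higher when each control array was set to its lowest signal well above background. That signal belongs to the array's dimmest such spot and not to this probe, so 3.63 is no firm lower bound. The limma adjusted p of ggt1a was 0.0901. The 3.63-fold value holds for that scaling only, since quantile normalization gave a smaller log2 fold change of 1.44. After background correction with an offset the log2 fold change was 0.32. The list had 9 positive and 12 negative values, with a median of -0.015.

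Among glutathione peroxidases and glutaredoxins, which reduce peroxides and protein disulfides with glutathione, 14 of 16 genes were tested and 0 had an unadjusted p under 0.05. The values split 7 and 7, with a median of 0.0082. The smallest p in the list were those of the dim gpx7, at 0.60 ± 0.30, and of ptgs2a, a prostaglandin synthase that the list also held. With quantile normalization gpx7 gave 0.088, and after background correction 0.0040. For ptgs2a the control levels were -4.98 and -3.46 and the MCLR levels -4.33 and -1.73. MCLR replicate 2 alone was high, and without it the log2 fold change was -0.11 in place of 1.19 ± 0.93.

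NADPH supply and glutathione-dependent detoxification had 18 of 22 genes tested, 9 positive and 9 negative, with a median of 0.014 and 0 at an unadjusted p under 0.05. The smallest p belonged to hagh, the glyoxalase that frees glutathione from lactoylglutathione. It stood at 1.70 and 1.86 in the controls and at 1.34 and 1.34 in MCLR, both lower, with a log2 fold change of -0.44 ± 0.23 and a limma adjusted p of 0.755. It was followed by gstz1, which both lists hold.

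Nrf2 and Keap1 control genes and known Nrf2 targets had 14 of 18 tested, 10 positive and 4 negative, with a median of 0.080 and 0 at an unadjusted p under 0.05. The smallest p were those of nfe2l1a, an Nrf2 relative, at 0.51 ± 0.34 (0.058 after background correction), and mafgb, for a small Maf partner of Nrf2, at -0.32 ± 0.24. The nfe2l1a probe was dim, with control signals of 8.79 and 10.5 and MCLR signals of 14.2 and 12.9. The other kept probe of nfe2l1a gave 1.02. On mafgb both MCLR arrays (0.59 and 0.48) lay below both controls (0.96 and 0.74).

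**Figure D4:**
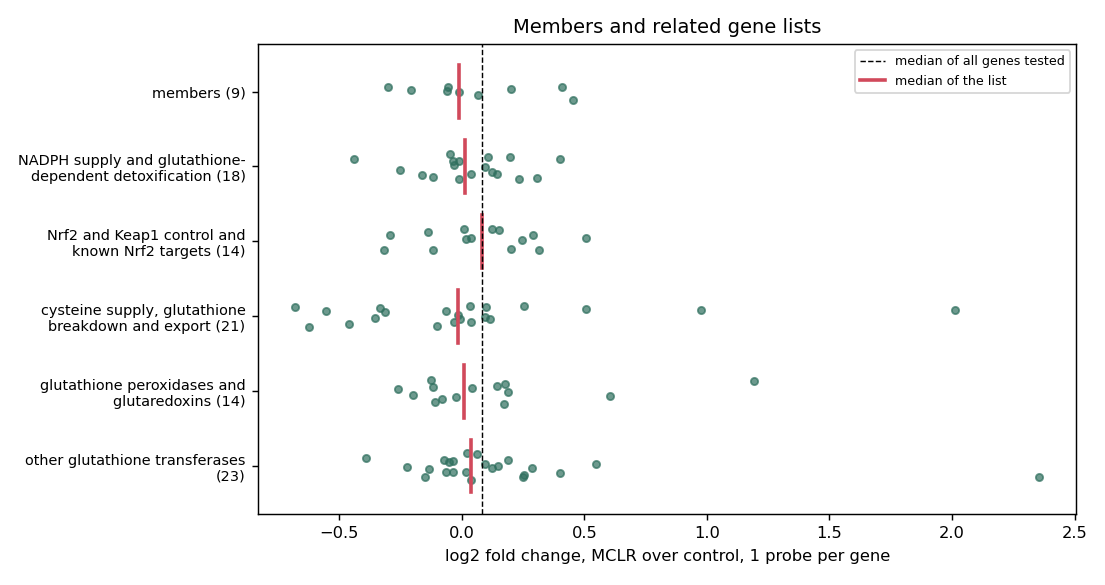
Log2 fold change of each tested gene in the members and the 5 related lists (points, 1 probe per gene), with list medians in red and the median of all genes tested, 0.082, as a dashed line. The medians lie between -0.015 and 0.080, and gdap1, ggt1a and ptgs2a reach farthest to the right, gdap1 and ggt1a with control arrays not above background.

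For gstp1, the genes with the nearest pattern were papss2a, xrcc6 and med1l. Likeness was the Euclidean distance of centred levels over the 4 arrays, and it was 0.022, 0.029 and 0.029. It was taken among 11614 named genes, leaving out provisional names such as those starting with LOC. A total of 805 genes lay within 0.2, so that 4 arrays single out few patterns. The log2 fold changes of these genes were 0.069, 0.064 and 0.072.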

How the data were processed

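Per the labels and the submitters' processing notes, RNA was amplified, labelled with Cy3 and read with Agilent Feature Extraction 11.0.1.1. The intensity values used, per the file headers, are that program's processed signal, which it corrects for background and spatial trend on each array separately. Raw spot and background brightness served 1 alternative, in which background correction was followed by quantile normalization. Another was the deposited table of log2 values, whose quartiles are equal on all arrays. Its normalization is not given in the sources used here, and it correlated with the log2 processed signal at 0.992 to 0.995. Its log2 fold changes for the member probes lay close to those of quantile normalization here. Both gave 0.08737 on the brightest gstp1 probe, and they gave -0.324 and -0.323 on gsto1. The deposited table is therefore no separate check beside quantile normalization.

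Each array was scaled by subtracting its 75th percentile (301.0 to 397.8 as signal) on the log2 scale. Repeat spots were averaged, leaving out spots marked as outliers on any array (60 probes lost). Transcript identifiers named 25949 of 43603 probes through the table of assembly GRCz12tu. That assembly is not the array's, so no coordinates are given. Probe and promoter sequences were not used here. The 37426 probes kept had both arrays of a group well above background, and a gene was represented by its brightest probe. The groups were compared with limma 3.58.1 (R 4.3.3; group only, eBayes, two-sided, Benjamini-Hochberg over all genes, threshold 0.05), with 2 residual and 3.52 prior degrees of freedom. The fit was tested on simulated data. Members and lists were chosen with earlier results of these data known. Named were all members, list genes at an unadjusted p under 0.05 or otherwise the 2 with the smallest p, and the 3 genes nearest to gstp1. Alternatives covered scaling, background correction, the deposited table, filters, the mean of probes, the prior, the replicate block and leaving out each array. With a single slide, no slide block could be fitted. Python 3.11.15 drew the plots.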

Additional observations from a re-analysis of the deposited data

How the results depend on the processing

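No alternative gave any of the 9 members an adjusted p under 0.05. At an unadjusted p under 0.05, gsta.1 passed after normexp background correction with an offset of 50 (0.33, unadjusted p = 0.0394, adjusted p = 0.997). It was the 1 member to do so, and 0 did in each other setting that kept all arrays. Of all 24329 genes, 613 passed the unadjusted threshold after that correction, against 2239 in the main fit. The mean raw spot brightness is not analysed here, so that correction used the median. Over all genes, 0 passed the adjusted threshold, against 214 with median scaling (308 probes), 2 with the trended and robust prior (3 probes) and 0 to 322 genes (0 to 442 probes) when 1 array was left out. The members' median of -0.012 was -0.11 with median scaling, 0.19 when probes of a gene were averaged and -0.090 to 0.21 when 1 array was left out, the highest without MCLR replicate 1. Median scaling moved the median of all genes from 0.082 to -0.014.

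Signs turned as follows. With quantile normalization gsr gave 0.014, gsto2 -0.055 and the second gss probe -0.054, and in the deposited table these gave 0.015, -0.054 and -0.060. The deposited table nearly repeats quantile normalization, so it is no separate check. Median scaling gave gstp1.2 -0.031 (other probes -0.018 and -0.086) and gsto2 -0.075. Background correction gave gstr 0.016, gsto2 -0.041 and the second gss probe -0.052. The mean of probes gave gclm 0.20 and gsr 0.19, since their dimmer probes were positive. When 1 array was left out, values ranged from -0.0032 to 0.41 for gstt1b, -0.33 to 0.20 for gsta.2, -0.16 to 0.038 for gclc, -0.12 to 0.096 for gsr, -0.078 to 0.21 for gstp1.2, -0.12 to 0.16 for gsto2, -0.65 to 0.041 for gsto1, -0.32 to 0.21 for gstr and -0.11 to 2.49 for ptgs2a. The other gstp1.2 probes ranged from -0.17 to 0.19, -0.17 to 0.45 and -0.072 to 0.23, and a dim gclc probe from -0.025 to 0.43. For ggt1a no value without 1 array is given, because it was kept through its MCLR arrays alone and no control array was above background. For the other changes the cause was not tested.

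Replicate numbers are shared between the groups, but no label ties a number to either of the 2 experiments, and deviations of same-numbered arrays correlated at 0.19. With the replicate block 0 genes and 0 probes passed. In this balanced layout the block cannot change a fold change, so the members' median of -0.012 stayed the same by construction.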
